A study of Mus musculus with 18 samples.

Results

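The genes of the heterotrimeric G protein subunits were followed across 18 arrays of mouse hypothalamus. The list held 31 genes for alpha, beta and gamma subunits, listed by gene name. Each gene was read from its brightest probeset that was annotated to that gene alone, which left 30 measured members among the 19937 genes measured in the same way. Gnas, the gene of the stimulatory alpha subunit Gs, was present only on a probeset shared with Gnasas1 and was kept out of all counts and tests.

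A heterotrimeric G protein consists of an alpha subunit that binds GDP or GTP and a beta-gamma dimer. An activated receptor exchanges GDP for GTP on the alpha subunit, and the alpha subunit and the dimer then act on separate effectors. The Gi alpha subunits of the Gi/o class inhibit adenylyl cyclase, and alpha subunits of the Gs class stimulate it. Those of the Gq class activate phospholipase C beta, while the G12 class has effectors of its own. Most neuropeptide receptors of the hypothalamus, which controls feeding, water balance and pituitary release, work through these proteins.

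The study compared wild-type mice with mice mutant for Wfs1, the gene of wolframin, a membrane protein of the endoplasmic reticulum. For the strain background the sample labels name 129SV and the series text names 129S6. Hypothalami were dissected under a microscope and frozen, and total RNA was labelled with biotin by a whole-transcript assay. Age, sex, pooling and the kind of Wfs1 allele are not given in the labels, and no treatment is named. The genotype of each array was labelled in the ending of its title (ko on 10 arrays, wt on 8). It was also given in a genotype field (KO on 9 arrays, WT on 9). Each title opened with KO or WT as well, and this opening matched the genotype field on every array. The groups are written here with the ending first: 5 arrays were labelled ko/KO, 4 wt/WT, 5 ko/WT and 4 wt/KO, so the labels contradicted each other on 9 arrays. The number after a group, as in wt/WT 1, only names an array.

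Neither label is treated here as true, because they contradict each other on 9 arrays. The level of Wfs1 itself did not differ past the threshold by either. This cannot show which label is right, since the kind of allele is not given and a mutant allele may leave signal on the probeset. The Wfs1 signal was 8.31 ± 0.31 log2 units (SD, n = 10) on arrays with the ending ko and 8.12 ± 0.25 (SD, n = 8) on arrays with the ending wt (exact permutation test, two-sided, p = 0.204). By the genotype field it was 8.252 ± 0.350 (SD, n = 9) on KO and 8.197 ± 0.244 (SD, n = 9) on WT (exact permutation test, two-sided, p = 0.697). A running number in the titles was lower on every array ending ko than on every array ending wt and did not separate the genotype field, but what it counts is not stated. The median of all values ranged from 7.10 to 7.19 log2 units over the arrays and their SD from 1.93 to 2.04. The array ko/WT 4 stood apart in Xist (5.93 log2 units, next array 10.31) and the array wt/WT 3 in Ttr, a marker of choroid plexus (12.80, next array 10.62). Of 14 listed markers of hypothalamic neurons 13 were measured, 7 of them above the upper quartile of all gene means, 5 below the median (Pomc, Crh, Gal, Nr5a1 and Sim1) and 0 below the lower quartile. Of 8 thalamic markers, all measured, 6 lay above the upper quartile and 0 below the median. Whether the arrays come from separate animals is not stated in the labels. The p-values therefore rest on the spread between arrays alone, which may be technical.

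Alpha, beta and gamma genes each included probesets above the upper quartile of all genes and probesets below the median. The 5 members below the lower quartile were alpha and gamma genes. Of the 30 members 15 lay above the upper quartile of all gene means (8.83 log2 units), 4 between that limit and the median of all genes (7.60), 6 between the median and the lower quartile (6.32) and 5 below the lower quartile. Probesets differ in how strongly they bind their target. The order of signals therefore describes probesets and does not measure which transcript was more abundant. In pieces of tissue such as these, fewer cells of a type and less RNA per cell cannot be told apart.

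**Figure D1:**
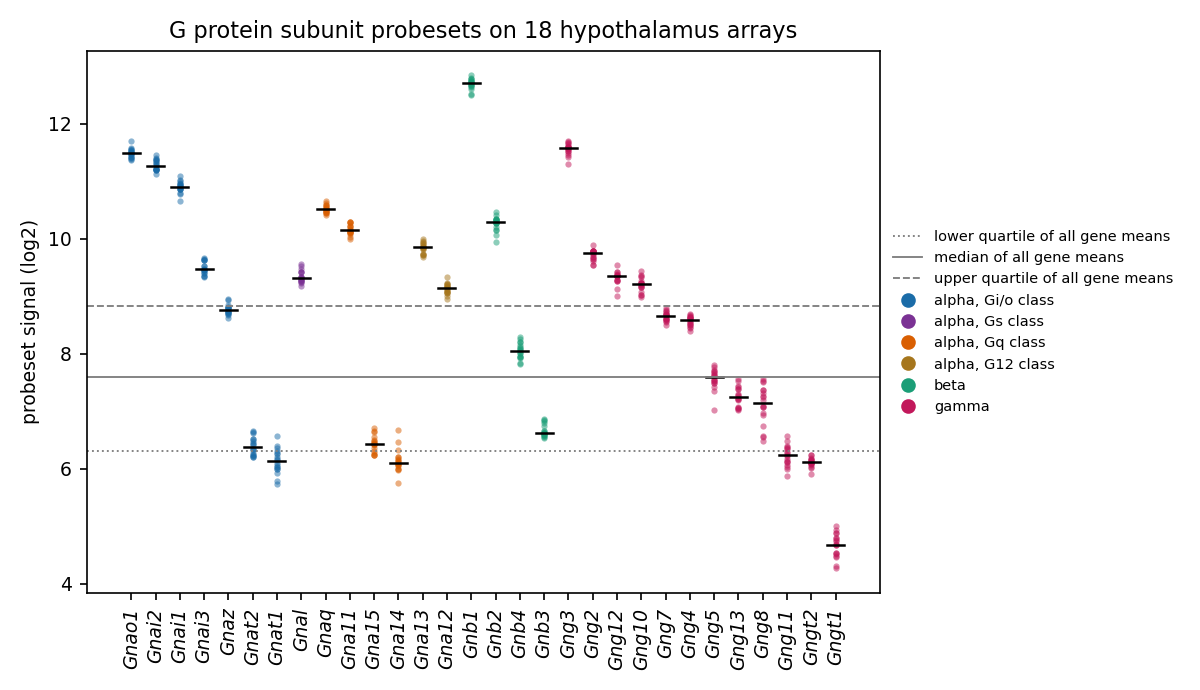
Probeset signal of the 30 measured subunit genes (log2, vertical axis) on each of 18 arrays (points), by class, with the median of each gene as a black bar and the quartiles of all gene means as horizontal lines. Gnb1 was the brightest member at a median of 12.70, 15 members lay above the upper quartile, and Gngt1 was the dimmest at 4.69.

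Among the alpha subunits of the Gi/o class, Gnao1 had the highest signal. It encodes Go alpha, an abundant G protein of neurons, and ran from 11.37 to 11.70 log2 units with a median of 11.49, which was brighter than 98.9% of genes. Gnai2, encoding an inhibitory Gi alpha, ran from 11.13 to 11.46 (median 11.27), which overlapped the range of Gnao1. Gnai1, another Gi alpha, ran from 10.65 to 11.09 (median 10.91) and did not reach the lowest value of Gnai2. The remaining Gi alpha gene, Gnai3, lay between 9.33 and 9.66 (median 9.47). Gnaz, whose product Gz alpha resists pertussis toxin, lay between 8.63 and 8.96 (median 8.77). The transducin genes Gnat1 of rods and Gnat2 of cones were dim, with medians of 6.13 (5.74 to 6.58) and 6.39 (6.20 to 6.66). Of 10 other measured markers of photoreceptors and pineal, all lay below the median of all genes and 8 below the lower quartile.

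The Gs class was represented by Gnal, which encodes the Golf alpha of olfactory neurons and striatum. Its signal ran from 9.18 to 9.56 log2 units (median 9.33). The probeset shared by Gnas and Gnasas1 ran from 10.51 to 10.78 (median 10.72), and its reading cannot be assigned to either gene. Gnal and the mean of 6 striatal markers gave r = 0.42 (permutation p = 0.081) and rho = 0.43 (p = 0.077) over the 18 arrays, and r = 0.35 without ko/KO 2 and wt/WT 1, whose striatal mean lay farthest from its median. The part of striatal tissue in the Gnal signal was not tested further.

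In the Gq class a bright and a dim pair were seen. Gnaq, a widely used activator of phospholipase C beta, lay between 10.41 and 10.66 (median 10.51) and had the lowest SD of all members, 0.066 log2 units, and 2.21% of genes varied less. Its close relative Gna11 lay between 9.99 and 10.30 (median 10.15), and both were above the upper quartile. Gna15, known mainly from blood cells, lay between 6.24 and 6.71 (median 6.44), and Gna14 between 5.75 and 6.67 (median 6.11). No value of the dim pair came near a value of the bright pair. Of the G12 class, Gna13 lay between 9.68 and 9.99 (median 9.85) and Gna12 between 8.96 and 9.33 (median 9.14), with no overlap between them.

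The mouse genome holds several of these genes as neighbours, and the neighbours differed in signal. On chromosome 10, Gna11 (mean 10.17) lay next to Gna15 (6.44) with no protein-coding gene between them, and on chromosome 19 Gnaq (10.52) lay next to Gna14 (6.14). On chromosome 3, Gnai3 (9.49) lay next to Gnat2 (6.40), and on chromosome 6 Gng11 (6.23) next to Gngt1 (4.67). Gnai2 (11.28) and Gnat1 (6.13) on chromosome 9 were separated by 1 protein-coding gene. The promoter windows of 3 neighbour pairs show how unlike their start sites are in sequence. The windows of Gna13 and Gng8, to which later results return, are added for comparison. Each covers 300 bases, 250 before to 50 after the start of the gene as RefSeq gives it on build GRCm38.p6, written 5′ to 3′ on the strand of the gene with every CpG in capitals. The windows are chr19:16132434-16132733 (plus strand) for Gnaq, chr19:16435417-16435716 (plus) for Gna14, chr10:81545113-81545412 (minus) for Gna11 and chr10:81524176-81524475 (minus) for Gna15. They are chr3:108146103-108146402 (minus) for Gnai3, chr3:108092816-108093115 (plus) for Gnat2, chr11:109362544-109362843 (plus) for Gna13 and chr7:16891536-16891835 (plus) for Gng8.
Gnaq: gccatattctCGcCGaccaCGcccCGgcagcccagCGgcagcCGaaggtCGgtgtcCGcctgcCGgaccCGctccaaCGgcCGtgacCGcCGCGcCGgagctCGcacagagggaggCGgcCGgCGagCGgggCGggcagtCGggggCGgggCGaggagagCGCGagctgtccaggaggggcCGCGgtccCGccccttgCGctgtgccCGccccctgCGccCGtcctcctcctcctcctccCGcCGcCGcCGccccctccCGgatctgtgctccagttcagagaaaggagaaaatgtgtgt
Gna14: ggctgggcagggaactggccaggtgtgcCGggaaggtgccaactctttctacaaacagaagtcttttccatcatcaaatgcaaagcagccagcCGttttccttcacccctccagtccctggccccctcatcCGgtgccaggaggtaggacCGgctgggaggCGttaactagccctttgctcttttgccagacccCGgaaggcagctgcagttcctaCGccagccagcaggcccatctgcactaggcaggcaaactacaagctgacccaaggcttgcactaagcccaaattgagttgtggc
Gnai3: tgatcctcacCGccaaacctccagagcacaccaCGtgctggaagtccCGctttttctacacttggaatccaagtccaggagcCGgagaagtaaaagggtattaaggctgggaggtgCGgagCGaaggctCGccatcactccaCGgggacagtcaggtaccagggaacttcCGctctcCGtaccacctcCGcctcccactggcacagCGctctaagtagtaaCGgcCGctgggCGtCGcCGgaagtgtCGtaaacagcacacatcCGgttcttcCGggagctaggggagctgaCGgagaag
Gnat2: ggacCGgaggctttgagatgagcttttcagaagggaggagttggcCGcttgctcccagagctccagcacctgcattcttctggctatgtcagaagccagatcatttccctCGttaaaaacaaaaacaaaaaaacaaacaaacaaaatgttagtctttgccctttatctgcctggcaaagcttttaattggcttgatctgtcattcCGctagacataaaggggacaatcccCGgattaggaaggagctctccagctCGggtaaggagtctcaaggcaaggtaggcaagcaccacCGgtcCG
Gna11: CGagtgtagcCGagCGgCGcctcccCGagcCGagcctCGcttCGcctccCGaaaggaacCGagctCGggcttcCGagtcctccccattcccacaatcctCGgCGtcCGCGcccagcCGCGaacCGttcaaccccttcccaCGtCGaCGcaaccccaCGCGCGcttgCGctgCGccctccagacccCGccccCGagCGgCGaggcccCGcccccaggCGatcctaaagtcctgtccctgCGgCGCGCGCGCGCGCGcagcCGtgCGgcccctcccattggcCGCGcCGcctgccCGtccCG
Gna15: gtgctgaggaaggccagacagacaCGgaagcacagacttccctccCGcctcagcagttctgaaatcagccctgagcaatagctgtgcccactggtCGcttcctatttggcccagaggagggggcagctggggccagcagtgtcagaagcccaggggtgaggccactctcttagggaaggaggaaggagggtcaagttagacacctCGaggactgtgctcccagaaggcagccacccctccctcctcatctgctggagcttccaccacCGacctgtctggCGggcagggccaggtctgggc
Gna13: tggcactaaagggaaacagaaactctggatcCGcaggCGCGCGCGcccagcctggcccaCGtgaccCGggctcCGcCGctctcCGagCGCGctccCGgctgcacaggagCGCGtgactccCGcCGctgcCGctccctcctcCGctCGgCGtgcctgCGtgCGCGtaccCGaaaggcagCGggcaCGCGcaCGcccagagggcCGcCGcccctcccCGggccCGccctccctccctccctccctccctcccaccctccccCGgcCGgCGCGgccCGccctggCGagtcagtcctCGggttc
Gng8: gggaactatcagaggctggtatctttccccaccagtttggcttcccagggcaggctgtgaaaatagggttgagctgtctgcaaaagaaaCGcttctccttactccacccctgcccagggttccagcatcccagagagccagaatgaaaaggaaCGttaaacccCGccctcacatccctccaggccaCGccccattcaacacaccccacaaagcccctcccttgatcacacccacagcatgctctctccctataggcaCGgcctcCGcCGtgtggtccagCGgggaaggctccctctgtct

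In all 3 pairs the brighter neighbour had more CpG sites in its window. Gnaq had 39 against 7 in Gna14, Gna11 had 48 against 6 in Gna15, and Gnai3 had 21 against 8 in Gnat2. Gna13 had 40 and Gng8 had 8. A window was found for 22 members. The 15 of them above the median level had a median of 30 CpG sites (range 2 to 53) and the 7 below it a median of 8 (4 to 52). Over all genes with a window these medians were 23 (n = 8049) and 6 (n = 7564), in the same order as among the members. There were exceptions in both directions: the bright Gng3 had 2 sites and Gng2 had 5, and the dimmer Gng5 had 52 and Gng13 had 34. The probeset of Gng5 may read another locus, as described below, so its place among the dimmer members is uncertain. The GC box GGGCGG, searched on both strands, was found in 14 of the 22 windows and in 35.7% of 32851 promoters of the table. It occurred 5 times in Gnaq, 3 times in Gna13, 2 times in Gna11 and once in Gng8, and in none of the other windows printed here. The letters TATAAA, likewise on both strands, were found in the window of Gngt1 alone among the members and in 13.6% of all promoters. In both searches the members were counted as genes, some with 2 listed starts, and the percentages are over promoters of all genes. Most members with a window also lay above the median level, so these shares are not like for like.

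Beta subunits form a tight dimer with gamma subunits. Gnb1, whose product is the beta subunit of rods and is also widespread in brain, was the brightest member. It ran from 12.50 to 12.84 log2 units with a median of 12.70, brighter than 99.8% of genes. Gnb2 ran from 9.94 to 10.46 (median 10.30) and Gnb4 from 7.82 to 8.30 (median 8.06). Gnb3, the beta subunit of cones, lay between 6.54 and 6.87 (median 6.62). The ranges of these 4 genes did not overlap.

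Among the gamma subunits, which carry the lipid anchor of the dimer, Gng3 stood highest. This neuronal gamma ran from 11.30 to 11.70 (median 11.58). Gng2, a gamma of brain and other tissues, ran from 9.55 to 9.90 (median 9.75), below every value of Gng3. The widely expressed Gng12 (9.01 to 9.54, median 9.36) and Gng10 (8.99 to 9.44, median 9.21) followed and overlapped each other. Gng7, known from striatal neurons, lay between 8.50 and 8.80 (median 8.67), and Gng4 between 8.39 and 8.69 (median 8.59), again with overlap. Gng5 lay between 7.03 and 7.80 (median 7.59). None of the 20 probesets with the nearest identifiers to that of Gng5 belonged to a gene of chromosome 3, where Gng5 lies, and 16 of the 20 belonged to chromosome 16. For every other measured member most of the 20 lay on the gene's own chromosome, so the Gng5 values may not read that gene.

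The remaining gammas, most of them known from sensory cells, were dimmer. Gng13, known from taste and olfactory cells and from retinal bipolar cells, lay between 7.03 and 7.56 (median 7.26). Gng11 lay between 5.87 and 6.58 (median 6.24), the cone gamma Gngt2 between 5.92 and 6.25 (median 6.12) and the rod gamma Gngt1 between 4.27 and 5.0 (median 4.69). Gng8, a gamma known from olfactory and vomeronasal neurons, lay between 6.48 and 7.57 (median 7.15). Its range was the widest of all members.

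Most members varied little from array to array. Their median SD was 0.105 log2 units, against 0.133 over all genes, and 20 of 30 members lay below the latter. Brighter genes vary less in general: for the 15 members above the upper quartile the median SD was 0.093, against 0.106 over all genes above it, and 11 of the 15 varied less than that. The 11 members under the median level had a median SD of 0.179, above that of all genes. They were not set against genes of like level. Gng8 had the largest SD at 0.339, more variable than 99.0% of genes. After it came Gnat1 (0.212), Gngt1 (0.209) and Gna14 (0.198), all 3 with means below the lower quartile.

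High and low values of Gng8 occurred under both labels. Its lowest values were 6.48 on wt/WT 2, 6.56 on wt/KO 2, 6.58 on ko/KO 3 and 6.75 on wt/KO 4. Its highest were 7.57 on ko/KO 1, 7.53 on wt/KO 3 and 7.51 on ko/WT 2. The ko/WT arrays ran from 7.10 to 7.51, and each of the other groups held at least 1 array below them.

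The genes that varied most like Gng8 were looked up after its values had been seen. Over the 18 arrays the closest of all genes was Chrna3, a nicotinic acetylcholine receptor subunit, with r = 0.944 and rho = 0.911. Next came Nwd2 (r = 0.936, rho = 0.915), Gfra1, a receptor for GDNF family ligands (r = 0.923, rho = 0.907), Lrrc55 (r = 0.921, rho = 0.896) and the orphan receptor Gpr151 (r = 0.921, rho = 0.910). Chrnb4, the nicotinic subunit that pairs with Chrna3, reached r = 0.883 (rho = 0.816). The permutation p of each r was 1e-05, the smallest that 100000 permutations can give, but these genes were taken from the top of 19936 such relations. Without wt/WT 2 and wt/KO 2, the arrays farthest from the median of Gng8, r remained between 0.843 for Chrnb4 and 0.919 for Chrna3 in these 6 genes. In all, 27 genes had r of at least 0.8 with Gng8, which is 0.135% of genes.

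Several of these genes are known markers of the medial habenula, a small nucleus that lies above the thalamus and outside the hypothalamus. Gpr151 ran from 6.22 to 8.58 log2 units (median 7.97), Chrna3 from 6.57 to 8.47 (median 7.61) and Nwd2 from 8.08 to 9.68 (median 9.10). The 4 arrays lowest in Gng8 were also the 4 lowest in Gpr151, with 6.57 on wt/WT 2, 6.78 on wt/KO 2, 6.22 on ko/KO 3 and 6.29 on wt/KO 4. Gng8 and the mean of 8 thalamic markers gave r = 0.38 (permutation p = 0.12) and rho = 0.50 (p = 0.038), and r fell to 0.20 without wt/KO 4 and ko/WT 2. With the mean of 13 markers of hypothalamic neurons r was -0.07 (p = 0.77, rho 0.01, p = 0.98, and r = -0.08 without 2 arrays). Whether a differing share of neighbouring tissue accounts for the spread of Gng8 was not tested.

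**Figure D2:**
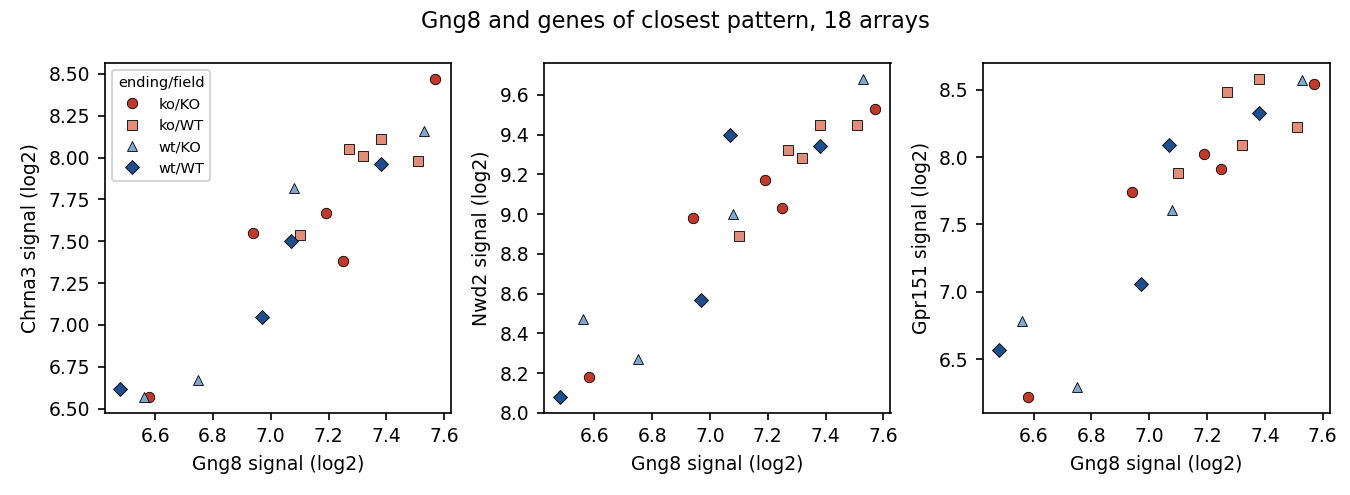
Signal of Chrna3, Nwd2 and Gpr151 (log2, vertical axes) against that of Gng8 (log2, horizontal axes) on 18 arrays, with symbols by title ending and genotype field. The points follow Gng8 in all 3 panels (r = 0.944, 0.936 and 0.921), and arrays of every label except ko/WT are found at its low end.

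Pairs of members moved together about as often as pairs of any genes. Of 435 pairs, 7 had r of at least 0.7 (1.61%), against 1.45% of all gene pairs, and 4 had r of -0.7 or lower (0.92%), against 0.89%. Among pairs with both genes above the median level, 6 of 171 reached 0.7 (3.51%), against 3.17% of all such pairs. The median r was 0.05 over member pairs and 0.01 over all pairs. After quantile normalization both counts were 1 (0.23%), against 0.74% of all gene pairs at 0.7 or above and 0.596% at -0.7 or lower. Without ko/WT 4 and wt/WT 3, the arrays that stood apart, the counts were 10 (2.3%, against 1.91% of all gene pairs) and 8 (1.84%, against 1.26%). Without ko/KO 1 they were 4 and 4. P-values below are from two-sided permutation tests, are not adjusted for the 435 pairs and describe pairs picked for their r.

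**Figure D3:**
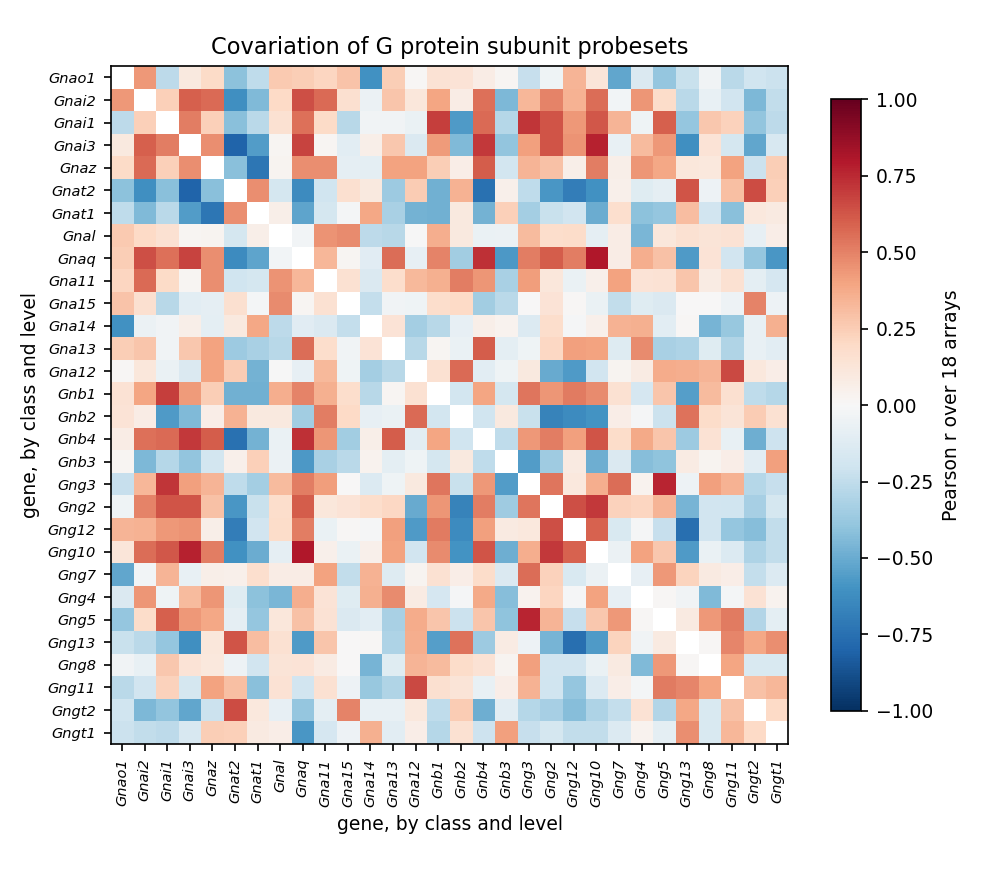
Pearson r over 18 arrays (colour, blue below 0 and red above 0) for every pair of the 30 measured members, ordered by class and level on both axes. Red cells gather where Gnaq, Gnai3, Gnb4 and Gng10 meet (r up to 0.798), and Gnat2 and Gng13 hold most of the dark blue cells (lowest r -0.801 for Gnai3 and Gnat2).

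The highest r belonged to Gnaq and Gng10, with r = 0.798 (p = 5e-05) and rho = 0.727 (p = 0.00083). Without ko/KO 1 and ko/KO 5, the arrays farthest from the median of Gnaq, r was 0.695. Gnai3 and Gng10 gave r = 0.767 (p = 0.00023) and rho = 0.845 (p = 2e-05), and 0.673 without ko/WT 5 and ko/KO 5. Gnaq and Gnb4 gave r = 0.733 (p = 0.00065) and rho = 0.764 (p = 0.00048), and 0.733 without the 2 farthest arrays. Each of these 3 pairs joins an alpha with a beta or gamma gene. Many of all member pairs do so by the make-up of the list, so this is not read as a result. In the other pairs among the top 5, r was smaller without 2 arrays. Gng3 and Gng5 gave r = 0.758 (p = 0.00086) and rho = 0.508 (p = 0.033), but 0.363 without wt/WT 1 and wt/WT 2. Gnai1 and Gng3 gave r = 0.711 (p = 0.0014) and rho = 0.653 (p = 0.0044), but 0.350 without wt/WT 1 and ko/KO 1. After quantile normalization r was 0.628 for Gnaq and Gng10, 0.671 for Gnai3 and Gng10, 0.551 for Gnaq and Gnb4 and 0.587 for Gnai1 and Gng3. Of these 5 pairs only Gng3 and Gng5 then stayed above 0.7, at 0.709, and the Gng5 probeset may read another locus.

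In 4 of the 5 most opposed pairs a transducin gene took part. Gnai3 and its genomic neighbour Gnat2 gave r = -0.801 (p = 0.00014) and rho = -0.788 (p = 0.00015), and -0.760 without ko/WT 5 and ko/KO 5. Gnat2 and Gnb4 gave r = -0.750 (p = 0.00037) and rho = -0.731 (p = 0.00081), and -0.669 without 2 arrays. Gnat1 and Gnaz gave r = -0.719 (p = 0.0008) and rho = -0.714 (p = 0.0011), and -0.718 without 2 arrays. Gnat2 and Gng12 gave r = -0.695 (p = 0.00067) and rho = -0.599 (p = 0.01), and -0.469 without 2 arrays. The remaining pair, Gng12 and Gng13, gave r = -0.754 (p = 0.00012) and rho = -0.687 (p = 0.002), and -0.573 without ko/KO 2 and ko/WT 2. After quantile normalization none of the 5 stayed at -0.7 or lower: r was -0.638 for Gnai3 and Gnat2, -0.666 for Gnat2 and Gnb4, -0.511 for Gnat1 and Gnaz, -0.629 for Gnat2 and Gng12 and -0.688 for Gng12 and Gng13. In each of these 5 pairs a member above the median level of all genes opposed a member below it.

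Among the other genomic neighbours r was smaller in size. Gna11 and Gna15 gave r = 0.15 (permutation p = 0.54, rho 0.26, p = 0.3, and 0.25 without 2 arrays), and Gnaq and Gna14 gave r = -0.11 (p = 0.65, rho -0.05, p = 0.85, and -0.11). Gng11 and Gngt1 gave r = 0.33 (p = 0.18, rho 0.33, p = 0.18, and 0.26). Gnai2 and Gnat1 gave r = -0.44 (p = 0.069, rho -0.50, p = 0.037, and -0.53).

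The width of an array's whole distribution moved with several members. With the SD of all values on an array, 11 of 30 members had r of 0.5 or more in size (36.7%), against 35.3% of all genes. Gnat1 was lower on arrays with a wider distribution (r = -0.828, permutation p = 2e-05, rho -0.783, p = 0.00019, and r = -0.695 without wt/WT 2 and ko/KO 2). Gnai3 was higher on them (r = 0.613, p = 0.0061, rho 0.638, p = 0.0057, and 0.683 without those 2 arrays). For Gnb1 r was 0.691 (p = 0.0022, rho 0.435, p = 0.072), but 0.287 without those 2 arrays. After quantile normalization r with the same SD was -0.77 for Gnat1, 0.405 for Gnai3 and 0.368 for Gnb1. That step therefore did not remove the relation to the width, least of all for Gnat1. The part of this width in the relations between members was not tested beyond the quantile normalization given above.

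Members also moved with marker lists of other cell types. Of 390 relations between 30 members and 13 lists, the largest was that of Gnat2 with 7 pituitary markers (r = 0.825, permutation p = 2e-05, rho 0.841, p = 3e-05, and 0.772 without 2 arrays). All 7 lay below the median of all genes and 4 below the lower quartile (Prl, Cga, Tshb and Fshb), and their mean ran from 6.07 to 6.41 log2 units on arrays ending ko and from 6.07 to 6.33 on arrays ending wt. Pomc, which is also on the list of hypothalamic neurons, is among the 7. Gnb1 moved with 5 endothelial markers (r = 0.793, p = 0.00014, rho 0.662, p = 0.0032, and 0.607 without 2 arrays) and Gnaq with 6 astrocyte markers (r = 0.790, p = 6e-05, rho 0.795, p = 0.00018, and 0.624). Gnai3 opposed 3 markers of olfactory neurons (r = -0.784, p = 0.0001, rho -0.811, p = 0.00011, and -0.784). Of these 3 markers 2 lay below the median of all genes, and Cnga2 lay below the lower quartile. These 4 relations were picked for their size, their p-values are not adjusted for the 390, and the share of all genes related as strongly was not counted. They were also not particular to 1 list or member. Gnat2 moved with the photoreceptor and pineal markers (r = 0.67) and the olfactory markers (r = 0.693) as well. With the astrocyte markers Gnb1 gave r = 0.768 and Gng10 r = 0.75. The part of these cell types in the values of the members was not tested.

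Among members above the median level of all genes, those with the largest SD were Gnb4, Gng10 and Gnb2. Over the 18 arrays Gnb4 was most like Bcas2 (r = 0.905), Txnl1 (r = 0.897) and Syt10 (r = 0.855). Gng10 was most like Pms2 (r = 0.919), Tspan6 (r = 0.905) and Cyp2j6 (r = 0.901). Gnb2 was most like Tmem259 (r = 0.928), Tubb3 (r = 0.926) and Retreg2 (r = 0.926). For each of these 9 relations the permutation p of r was 1e-05, rho was between 0.829 and 0.921, and r without the 2 farthest arrays was between 0.827 and 0.891. They were picked as the highest of 19936 relations each.

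The study's title speaks of reduced G-protein signalling in the mutants. The arrays read RNA and do not measure signalling, so only the transcript levels of the subunits by label are addressed here. No member differed past an adjusted p of 0.05 in any comparison by label. The test was limma with Benjamini-Hochberg adjustment over all 19937 genes, and it called 0 genes (0%) by the title ending, by the genotype field, on the arrays whose labels agree and on those whose labels contradict each other. Limma with trend and robust shrinkage also called 0 genes in all 4. The last 2 comparisons use parts of the arrays of the others, so the 4 are not independent of each other. At an unadjusted p under 0.05 stood 2 of 30 members by the ending, against 4.63% of genes, and 4 by the field, against 6.95%. On the agreeing arrays they were 4, against 11.1%, and on the contradicting arrays 3, against 2.74%.

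The direction of the members as a list differed between the comparisons. By the ending 13 were higher and 17 lower on the arrays labelled ko (median difference -0.0039 log2 units, all genes 0.003). By the field 18 were higher and 12 lower on the arrays labelled KO (median 0.0128, all genes -0.0056). On the agreeing arrays 18 were higher and 12 lower on ko/KO (median 0.0507, all genes -0.0015), and on the contradicting arrays 12 were higher and 18 lower on ko/WT than on wt/KO (median -0.0143, all genes 0.0055). None of these counts and medians carries a test.

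**Figure D4:**
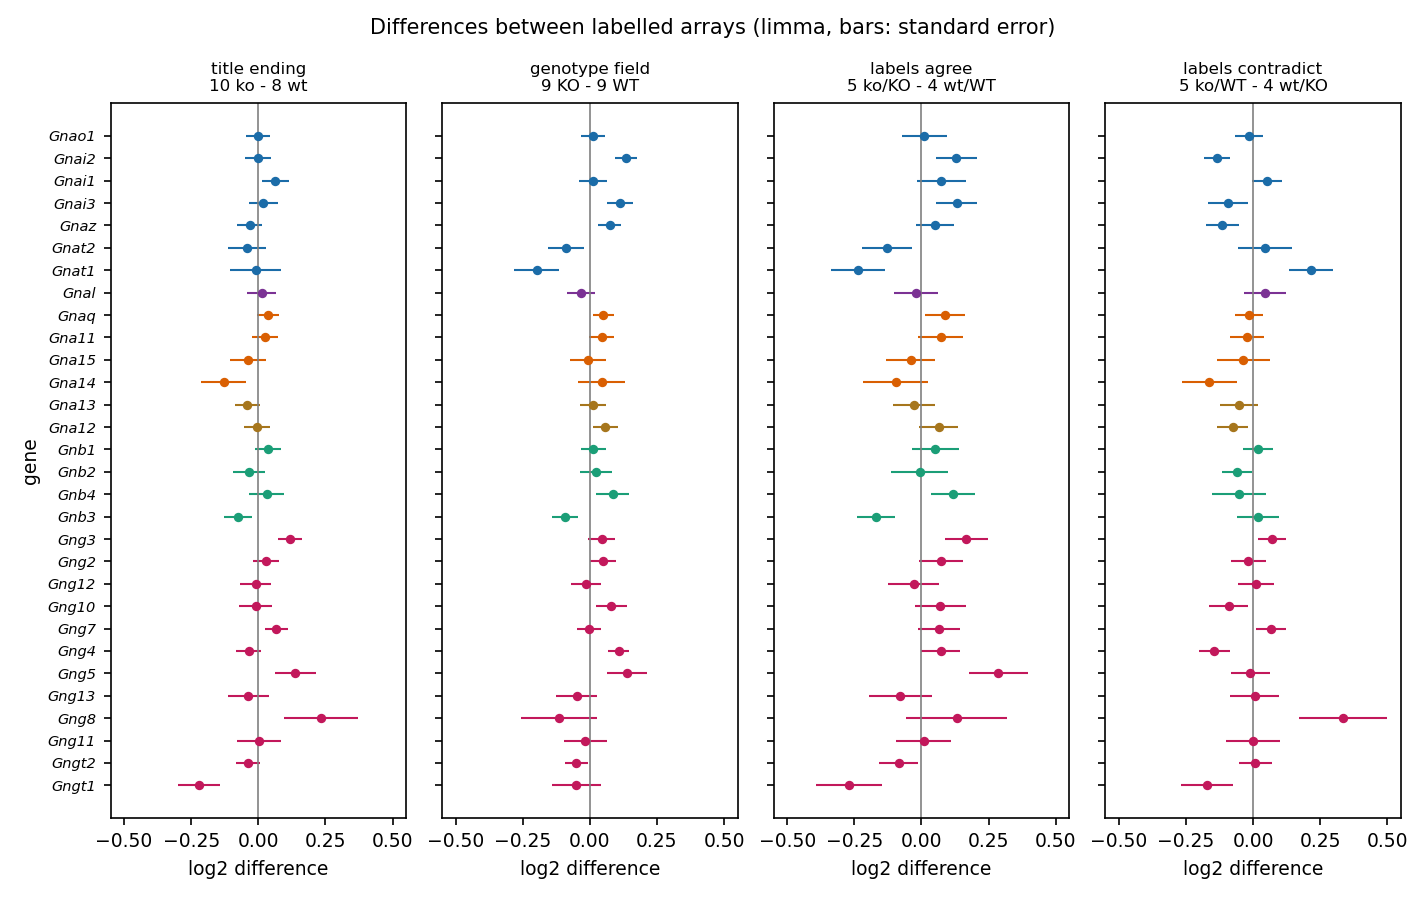
Difference in log2 signal of each measured member (points, horizontal axes) with its limma standard error (bars) in the 4 comparisons by label, the group named first minus the group named second. No point passed the adjusted p threshold, and the points of Gnat1, Gnai2 and Gng4 lie on opposite sides of 0 in the genotype field and in the contradicting labels, where the field is turned round.

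By the title ending the smallest p-values belonged to a pair of gammas. Gngt1 ran from 4.27 to 4.80 log2 units (median 4.54) on the 10 arrays labelled ko and from 4.48 to 5.0 (median 4.83) on the 8 labelled wt. The groups overlapped over most of their ranges, and the difference was -0.22 (SE 0.080, limma adjusted p = 0.884). Gng3 ran from 11.56 to 11.70 (median 11.60) against 11.30 to 11.64 (median 11.51). Its 6 lowest values were all on arrays labelled wt, and the difference was 0.12 (SE 0.044, adjusted p = 0.884). The next was Gng5, whose probeset may read another locus, at 0.14 (SE 0.076, adjusted p = 0.884). It ran from 7.42 to 7.80 against 7.03 to 7.72, and its difference was 0.073 without wt/WT 1, the array with the lowest value.

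By the genotype field the smallest p belonged to Gnai2. It ran from 11.21 to 11.46 (median 11.37) on the 9 arrays labelled KO and from 11.13 to 11.32 (median 11.21) on the 9 labelled WT. Of the KO arrays only ko/KO 2 lay at or below the median of WT, yet the ranges overlapped between 11.21 and 11.32. The difference was 0.13 (1.10-fold, SE 0.040, limma adjusted p = 0.694). Gng4 ran from 8.52 to 8.69 against 8.39 to 8.63 and differed by 0.11 (SE 0.041, adjusted p = 0.694). The rod transducin Gnat1 ran from 5.74 to 6.40 against 6.0 to 6.58 and differed by -0.20 (SE 0.083, adjusted p = 0.694).

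On the arrays whose labels agree, Gnb3 was the member whose groups did not overlap. It stood at 6.55, 6.62, 6.63, 6.59 and 6.54 log2 units on the 5 ko/KO arrays and at 6.83, 6.79, 6.66 and 6.74 on the 4 wt/WT arrays. The highest ko/KO value lay 0.03 below the lowest wt/WT value in this cone beta gene, which is dim on all arrays. The difference was -0.17 (SE 0.070, limma adjusted p = 0.421). Groups without overlap were found for 2.82% of all genes here and for 1 of 30 members. Gng5 stood at 7.77, 7.80, 7.52, 7.50 and 7.67 on ko/KO and at 7.03, 7.35, 7.53 and 7.55 on wt/WT. Its groups overlapped through ko/KO 3 and ko/KO 4, and the difference of 0.29 (SE 0.11, adjusted p = 0.401) became 0.18 without wt/WT 1. Gnat1 stood at 6.20, 6.40, 6.15, 6.04 and 5.93 on ko/KO and at 6.36, 6.58, 6.31 and 6.27 on wt/WT. Only ko/KO 2 rose into the range of wt/WT, and the difference was -0.24 (SE 0.10, adjusted p = 0.429).

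On the arrays whose labels contradict each other, Gnai2 and Gng4 did not overlap. Gnai2 stood at 11.21, 11.19, 11.22, 11.20 and 11.22 on the 5 ko/WT arrays and at 11.37, 11.40, 11.32 and 11.28 on the 4 wt/KO arrays. The ko/WT arrays agreed to within 0.03 log2 units, and all lay below the lowest wt/KO value. The difference was -0.13 (SE 0.050, limma adjusted p = 0.9998). Gng4 stood at 8.62, 8.45, 8.56, 8.39 and 8.51 on ko/WT and at 8.65, 8.63, 8.64 and 8.68 on wt/KO, a difference of -0.14 (SE 0.059, adjusted p = 0.9998). Members without overlap were 2 of 30 (6.67%), against 0.767% of all genes. Gnat1 stood at 6.11, 6.26, 6.04, 6.17 and 6.0 on ko/WT and at 5.79, 6.0, 5.74 and 6.07 on wt/KO. These groups overlapped, and the difference was 0.22 (SE 0.082, adjusted p = 0.9998).

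By the ending and by the field no member had groups without overlap, and of all genes 1 did in either case (0.00502%). The ending effect was also compared between the arrays of field KO and those of field WT, as an interaction term. It called 0 of 19937 genes (0%), with 5.18% at an unadjusted p under 0.05, and 3 of 30 members (Gnat1, Gng11 and Gna12) stood there. Gnat1 had the smallest p of the members, since the arrays ending ko were higher than those ending wt within field KO and lower within field WT (interaction 0.51 log2 units, limma adjusted p = 0.927). Gnat1 was also the member that moved most with the width of the arrays' distributions.

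Genes that work directly with the subunits were read in the same fits. Of 28 listed receptor kinases, arrestins, chaperones, regulators and effectors, 27 were measured and 0 passed the adjusted threshold in any comparison. By the ending 16 were higher and 11 lower, with Grk5, a kinase that phosphorylates active receptors, at 0.14 (SE 0.057, limma adjusted p = 0.884) and Pdcl, a phosducin-like chaperone of the beta-gamma dimer, at 0.16 (SE 0.069, adjusted p = 0.884). By the field 15 were higher and 12 lower, with Gprin1, a partner of activated Go and Gi alpha in neurites, at 0.12 (SE 0.062, adjusted p = 0.694) and the receptor kinase Grk4 at 0.13 (SE 0.081, adjusted p = 0.707). On the agreeing arrays 17 were higher and 10 lower, with Grk5 at 0.24 (SE 0.078, adjusted p = 0.384) and Pdcl at 0.26 (SE 0.11, adjusted p = 0.43). Grk5 stood at 8.23 to 8.42 on ko/KO and at 8.02 to 8.21 on wt/WT. It was the only 1 of the 27 without overlap there, against 2.82% of all genes. On the contradicting arrays 14 were higher and 13 lower, with Gprin1 at -0.20 (SE 0.079, adjusted p = 1) and Arhgef11, an effector of G12 class alphas, at 0.087 (SE 0.053, adjusted p = 1).

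The Wfs1 level fell into a pair of clusters. On 10 arrays it lay between 7.86 and 8.07 log2 units and on 8 between 8.36 and 8.72, and a limit of 8.2 separated them. The lower side held 4 arrays ending ko and 6 ending wt, 5 of field KO and 5 of field WT. The upper side held 6 ending ko and 2 ending wt, 4 of field KO and 4 of field WT. Because the sides were set by a measured level and not by a label, they are described without a test and are not read as genotypes.

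The members overlapped between the sides. None of the 30 had sides that did not overlap, and of 19936 genes 1 was wholly higher on the lower side (0.00502%) and 2 were wholly lower (0.0100%). Of the members 13 had a higher median on the lower side, 15 a lower median and 2 an equal one. The medians lay at least 1 SD apart for 2 members (6.67%), against 4.82% of genes. The median absolute difference between the sides was 0.53 SD over the members and 0.33 SD over all genes.

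Gna13, the G12 class alpha subunit whose promoter window is given above, stood farthest apart. On the 10 arrays low in Wfs1 it ran from 9.82 to 9.99 log2 units (median 9.90) and on the 8 high in Wfs1 from 9.68 to 9.85 (median 9.74). The sides overlapped between 9.82 and 9.85, 7 of the 10 lay above every array of the other side and 5 of the 8 lay below every array of the lower side. The medians differed by 0.16, and 3 of 19936 genes (0.015%), Gna13 among them, differed by as much relative to their SD. The difference lay between 0.15 and 0.17 when any single array was left out.

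Of the 13 marker lists, those of oligodendrocytes and thalamus had the largest r in size with Gna13. Over the 18 arrays Gna13 opposed the mean of 6 oligodendrocyte markers (r = -0.616, permutation p = 0.0062, rho -0.655, p = 0.0038, and -0.591 without wt/WT 2 and wt/WT 4) and that of 8 thalamic markers (r = -0.502, permutation p = 0.035, rho -0.486, p = 0.042, and -0.428 without wt/KO 4 and ko/WT 2). These p-values are not adjusted for the 390 relations. The oligodendrocyte mean ran from 10.08 to 10.55 log2 units on the arrays low in Wfs1 and from 10.35 to 10.64 on the others, and all 6 markers lay above the upper quartile. The thalamic mean ran from 9.975 to 10.285 and from 10.055 to 10.364, so both means overlapped between the sides. The part of these cells in the difference of Gna13 was not tested.

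Gng4 ran from 8.47 to 8.69 (median 8.63) on the arrays low in Wfs1 and from 8.39 to 8.64 (median 8.52) on the others, a difference of 0.115 that 0.672% of genes matched relative to their SD. Gnai2 ran from 11.20 to 11.40 (median 11.30) and from 11.13 to 11.46 (median 11.22), a difference of 0.085 that 6.76% of genes matched. Both genes overlapped broadly, and the highest Gnai2 value of all, on ko/KO 1, belonged to the array highest in Wfs1. Gng8 had medians of 7.08 on the arrays low in Wfs1 and 7.33 on the others. The medians were 7.81 and 8.35 for Gpr151 and 7.55 and 8.02 for Chrna3. By the title ending the medians of Gng8 were 7.26 on arrays labelled ko and 7.02 on those labelled wt. They were 8.06 and 7.34 for Gpr151 and 7.83 and 7.28 for Chrna3. Gpr151 and Chrna3 were picked for their r with Gng8 on these same arrays, so their shared direction is no separate evidence. The ranges overlapped broadly in both comparisons, as for Gpr151 by Wfs1 (6.29 to 8.33 and 6.22 to 8.58). The mean of Gng8 differed by 0.23 by the ending (SE 0.14, limma adjusted p = 0.884), the largest difference of the members in that comparison.

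**Figure D5:**
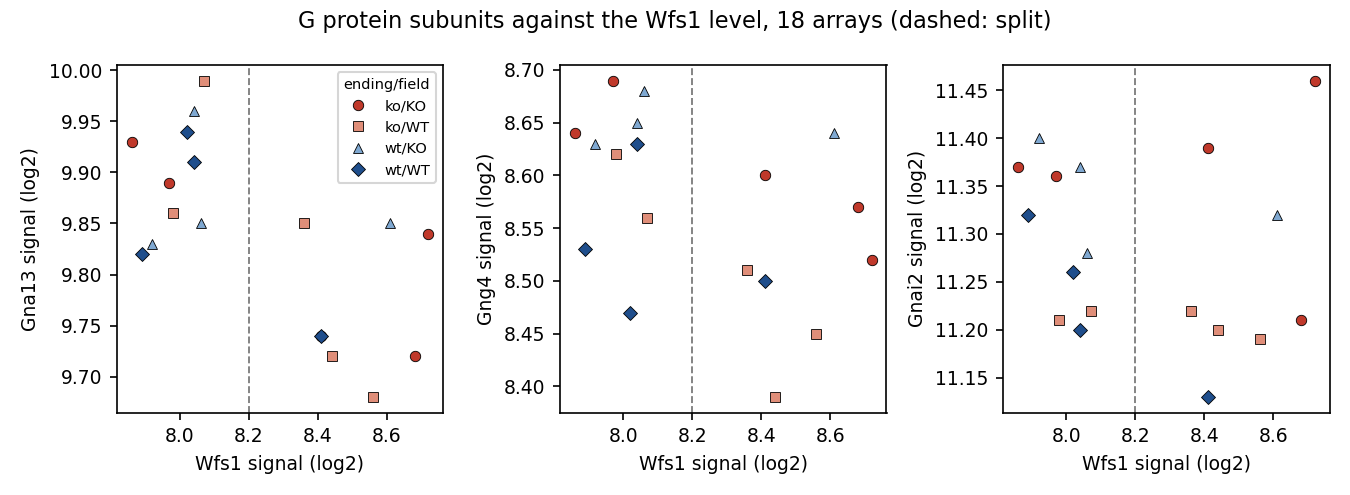
Signal of Gna13, Gng4 and Gnai2 (log2, vertical axes) against that of Wfs1 (log2, horizontal axes) on 18 arrays, with symbols by title ending and genotype field and a dashed line at 8.2. Gna13 lies mostly higher to the left of the line (median 9.90) than to its right (9.74), while Gng4 and Gnai2 overlap more.

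Within a side no gene followed the Wfs1 level past the adjusted threshold. A limma slope over all genes called 0 of 19936 (0%) on either side, with 3.21% at an unadjusted p under 0.05 on the lower side and 4.86% on the upper, against 0 and 1 of 30 members. On the lower side Gng10 had the smallest p (slope -0.97 per log2 unit of Wfs1, SE 0.48, adjusted p = 0.951). Its r was -0.65 (permutation test, p = 0.037, rho -0.55, p = 0.1), and -0.45 without ko/KO 5 and wt/WT 3. Gng12 and Gnb2 followed with slopes of equal p at 3 digits. Gng12 had r = -0.65 (permutation test, p = 0.031, rho -0.66, p = 0.04), and -0.23 without the same 2 arrays. Gnb2 had r = 0.51 (permutation test, p = 0.13, rho 0.31, p = 0.38), and 0.04 without them. On the upper side exact permutation tests were used. Gng5, whose probeset may read another locus, had r = 0.89 there (exact p = 0.0041, rho 0.87, p = 0.0075), 0.74 without ko/KO 1 and ko/KO 2, and a limma slope with an adjusted p of 0.914. Gng8 had r = 0.56 there (exact p = 0.14, rho 0.56, p = 0.15), and 0.57 without those 2 arrays. Gna13 had r = 0.47 (permutation p = 0.17, rho 0.49, p = 0.16, and 0.65 without 2 arrays) on the lower side and r = 0.11 (exact p = 0.8, rho -0.16, p = 0.7, and -0.02) on the upper.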

How the data were processed

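The 18 arrays measured RNA of mouse hypothalamus. The deposited values are log2 signals per probeset, and the authors' normalization is known only from the submitters' processing notes, which name RMA and MAS5 without role, order or version. The log2 scale was inferred from their range. The array model and the dates of scanning were not given in the sources used here, so batches were not examined. Precision is limited by the number of arrays.

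Of 34760 probesets 21640 carried 1 gene symbol in the platform annotation, 1321 several and 11799 none listed. The brightest single-symbol probeset stood for each of 19937 genes, of which 19855 matched RefSeq (GRCm38.p6) by gene identifier. Each of the 30 measured members had 1 such probeset, so the choice of probeset did not bear on them.

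Differences were fitted with limma 3.58.1 in R 4.3.3 (lmFit and eBayes, no covariates), and p-values were adjusted by Benjamini-Hochberg over all genes with a threshold of 0.05. The fits were run on simulated data with independent noise for each gene. That setting lacks the covariation of genes over arrays, so it does not show what the label comparisons could detect. Relations over arrays are Pearson r and Spearman rho with two-sided permutation tests of 100000 resamples (scipy 1.17.1, numpy 2.4.6), or exact tests under 10 arrays. The Wfs1 limit of 8.2 is part of the definition of the gene group examined. Promoter windows are from RefSeq.

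Full statistics are given for the 3 members with the smallest p in each label comparison, the 5 highest and 5 lowest pairs, the 3 members farthest apart by Wfs1, the 2 with the smallest p within each side (3 where tied), the 3 genes most like each of the 3 most variable members above the median level, and 2 pathway genes per comparison. Gng8 and its companions, and the neighbour pairs, were added after their values were seen, as were the marker relations and the interaction. The members and lists were chosen with earlier results of these data known.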

Additional observations from a re-analysis of the deposited data

Results flagged for a closer look

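Each of the 30 measured members was checked for an array far from the rest of its group, once among the arrays ending ko and once among those ending wt. Of these 60 groups 2 held such an array, and chance gives about 1 in 20. Gnb2 stood at 9.94 log2 units on ko/KO 5, where the nearest of the other arrays ending ko stood at 10.16. On the same array Gng2, Gng10 and Gng12 had their highest values of all 18 arrays and Gnb3 and Gng13 their lowest. Gnb3 stood at 6.87 on ko/WT 4, where the nearest of the others stood at 6.66. That array is also the array low in Xist. The cause was not tested for either value.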

How the results depend on the processing

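The count of 0 genes and 0 members past the adjusted threshold was the same in all 4 label comparisons under quantile normalization, median centring, the filter on the dimmest 40% of genes, the mean of probesets, limma with trend and robust shrinkage, every fit without 1 array (0 to 0 called), and without ko/WT 4 and wt/WT 3, the arrays that stood apart, the last chosen after seeing the data. The same held for the pathway genes and, where run, for the slopes on Wfs1 (0 to 0 without 1 array) and the members without overlap by Wfs1 (0 to 0). The filter left out the dim members. The 15 members above the upper quartile stayed 15 (15 to 15 without 1 array), and the median SD of 0.105 lay between 0.101 and 0.108. The pair counts changed most: the 7 pairs at 0.7 or above became 1 under quantile normalization, 5 with Spearman's rho, 10 without ko/WT 4 and wt/WT 3, and 4 to 9 without 1 array (4 without ko/KO 1), and the 4 opposed pairs became 1, 5, 8 and 3 to 6 in the same order. The cause was not tested. No named difference changed sign. No paired analysis was possible because the labels give no replicate numbers that the groups share, and the numbers used here, in accession order, only name arrays. Scan dates and detection calls were not analysed here, so what dim probesets measure above background is unknown.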
